A study of Arabidopsis thaliana with 6 samples.

Results

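The seed maturation bZIP factors described here are 7 *Arabidopsis* basic leucine zipper genes, *ABI5* (AT2G36270), *EEL* (AT2G41070), *bZIP67* (AT3G44460), *AREB3* (AT3G56850), *bZIP10* (AT4G02640), *bZIP25* (AT3G54620) and *bZIP53* (AT3G62420), chosen by locus from the family members known for work in seeds. Of these 7, 6 were counted and all 6 passed the filter on low counts, among 18241 genes tested of 24509 with a read. *bZIP53* was not analysed here.

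RNA was sequenced from embryos of Col-0 plants dissected 8 d after pollination, with 25 to 30 embryos pooled in each sample. The libraries labelled *atwri1-1* (3 samples) came from plants homozygous for wrinkled1-1, a mutant allele of the gene for the WRINKLED1 (WRI1) factor of fatty acid synthesis, and the WT libraries (3 samples) from wild-type plants. Neither set of plants received a treatment according to the labels. Levels are given in CPM, counts per 1e+06 reads on the tested genes after TMM scaling, and a gene was called changed where edgeR's quasi-likelihood test gave an adjusted p (Benjamini-Hochberg) no higher than 0.05 and the log2 fold change exceeded 1 in size.

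Plant bZIP proteins bind DNA as dimers, mostly at sites with an ACGT core such as the G box or the abscisic acid response element. The group A factors ABI5, EEL, bZIP67 and AREB3 act downstream of abscisic acid (ABA), the hormone that promotes storage product accumulation, dormancy and desiccation tolerance in seeds. The group C factors bZIP10 and bZIP25 dimerise with the group S1 factor bZIP53 and, together with the B3 factor ABI3, switch on storage protein genes. bZIP67 is known to act in a complex with LEC1-LIKE (L1L, a NF-YB subunit) and NF-YC2, and storage protein, sucrose synthase and omega-3 desaturase genes are among its targets.

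The 250 bases ahead of the annotated gene start are shown for *bZIP67* and *ABI5*, the members that were called changed, and for *CRC*, a globulin gene known as a target of the family. They were read from RefSeq's TAIR10.1 genome on the coding strand, and capitals mark the ACGT core, the RY element (CATGCA) bound by B3 factors, and the AW Box (CNTNGNNNNNNNCG) bound by WRI1.
bZIP67, chr3:16081907-16082156, minus strand: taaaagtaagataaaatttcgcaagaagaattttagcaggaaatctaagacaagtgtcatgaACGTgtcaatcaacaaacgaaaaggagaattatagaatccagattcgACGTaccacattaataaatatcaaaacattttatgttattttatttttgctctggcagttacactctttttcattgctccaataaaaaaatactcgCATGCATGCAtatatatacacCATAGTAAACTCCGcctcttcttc
ABI5, chr2:15207637-15207886, minus strand: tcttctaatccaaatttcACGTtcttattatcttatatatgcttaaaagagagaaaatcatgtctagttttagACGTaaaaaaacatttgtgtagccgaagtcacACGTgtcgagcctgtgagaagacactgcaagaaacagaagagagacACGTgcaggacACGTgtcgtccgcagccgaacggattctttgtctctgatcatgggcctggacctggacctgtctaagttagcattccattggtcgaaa
CRC, chr4:14087306-14087555, plus strand: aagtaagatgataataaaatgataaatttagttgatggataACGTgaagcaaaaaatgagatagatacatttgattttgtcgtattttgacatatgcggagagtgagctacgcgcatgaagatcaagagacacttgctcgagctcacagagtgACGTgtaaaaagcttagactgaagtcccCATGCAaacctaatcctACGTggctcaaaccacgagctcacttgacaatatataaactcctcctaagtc

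Motifs were searched on both strands in the same window of 27443 protein-coding genes, with positions counted back from the base ahead of the gene start as -1. The *bZIP67* window held ACGT at -188 and -141, a run of 3 overlapping RY matches beginning at -45, and an AW Box at -24. The ACGT core stood in 44.1% of all windows, the RY element in 8.43% and the AW Box in 9.30%. Among the 7 bZIP genes, *bZIP67* was the one with an RY element or an AW Box in this window. A CNC Box (CNCCNCC) began inside that AW Box, at -15, and 10.06% of all windows held this motif. The *ABI5* window held 5 ACGT cores, 3 of them within a G box (CACGTG, 6.49% of windows), and it was the member with a G box there. In the 500 bases after the gene start, an AW Box was found in *ABI5*, *bZIP67* and *bZIP25*, as in 39.8% of all genes. An RY element stood there in *bZIP67* and *AREB3*, as in 12.3% of all genes. A match of letters is a description of the sequence and not of binding.

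*WRI1* mRNA, the product of the mutated gene, was measured at 1256, 1100 and 1042 CPM in replicates 1 to 3 labelled *atwri1-1* and at 186, 148 and 166 CPM in WT. It was thus higher in each library with the mutant label (by 2.76 on the log2 scale, with a standard error of 0.161 and an adjusted p of 2.3e-04 by edgeR), and every direction below follows the labels. Reads on transcripts numbered between 8510887 and 18933870 per library. The share of the deposited total that fell on no transcript was 86.6% in replicate 1 labelled *atwri1-1* and between 39.6% and 45.0% in the other 5 libraries. WT replicate 1 stood apart from the other WT libraries, with correlations of log2 CPM across genes of 0.937 and 0.943 with them, against 0.984 between WT replicates 2 and 3 and up to 0.948 across genotypes. Without it, genes called higher numbered 364 in place of 197, and the log2 fold change was -6.58 for *bZIP67* and 0.95 for *ABI5*, with *ABI5* then not called. Among the listed genes described below, *LEC2* also lost its call without it, and *LEC1*, *AFP1*, *PYL7* (-1.65) and *ProDH1* (-1.77) gained one. Summed CPM of the 5 embryo markers *At2S3*, *CRA1*, *OLE1*, *OLE2* and *FAE1* ranged from 4529 to 7959 in the libraries labelled *atwri1-1* and from 3869 to 6101 in WT, as the labelled tissue has it. Of 7 seed coat markers 5 were tested, with sums of 318 to 465 CPM labelled *atwri1-1* and 333 to 377 CPM in WT. For the 7 endosperm markers (5 tested), the sums were 73.7 to 262 CPM labelled *atwri1-1* and 68.6 to 394 CPM in WT. The median log2 fold change of these 5 was 1.31, and 2 were called higher, beside 1.08% of all genes. Groups did not overlap for 3 of the 5, beside 35% of all genes tested. The seed coat markers *TT1* and *PRX36* and the endosperm markers *MINI3* and *IKU2* were too low to test. Among the endosperm markers, *AGL62* and *FWA* rose, with means of 1.71 and 1.90 CPM labelled *atwri1-1* against 0.449 and 0.334 CPM in WT, where they rest on 3 to 8 reads per library. *EPR1* (AT2G27380), the most abundant endosperm marker, had 161, 39.5 and 104 CPM labelled *atwri1-1* against 344, 41.0 and 80.7 CPM in WT, with overlapping groups (log2 fold change -0.62, adjusted p = 0.67 by edgeR). The part of these markers in the results below was not tested.

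*bZIP67* mRNA was almost absent from the libraries labelled *atwri1-1*, *ABI5* mRNA rose about 2.05-fold, and the other 4 measured members were not called. The *bZIP67* call held in all 14 settings tried, and the *ABI5* call in 8 of them. Over all 18241 genes, 5.31% were called lower, 1.08% higher and 6.39% either way. Beside these shares stand 1 lower and 1 higher of 6 members. The members and the lists below were chosen with earlier results of these data known. Levels of 3 members (*bZIP67*, *ABI5* and *bZIP10*) did not overlap between genotypes, as for 35% of all genes tested. The median log2 fold change of the 6 members was -0.084, and that of all genes was -0.0070. In pooled embryos, fewer cells with an mRNA and less of it per cell cannot be told apart.

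**Figure D1:**
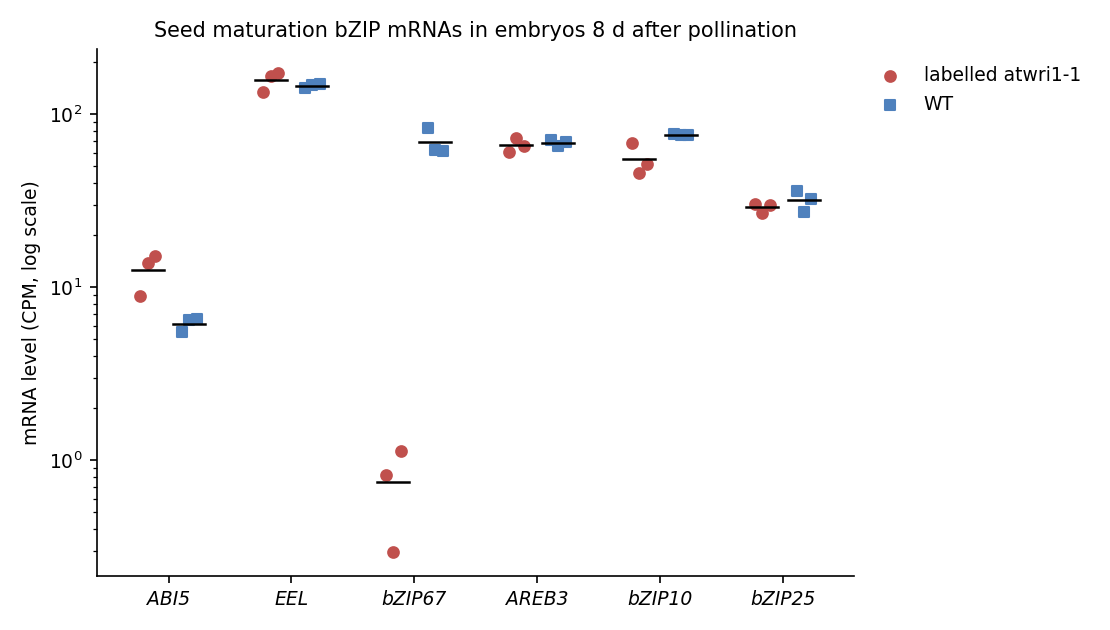
The y axis is the mRNA level in CPM on a log scale, and each point is 1 library, with circles for libraries labelled *atwri1-1* and squares for WT, left and right of each gene's tick. Black bars are means of 3. The *bZIP67* circles lie between 0.296 and 1.13 CPM, against 61.5 to 83.4 CPM for the squares, while the circles and squares of *EEL*, *AREB3* and *bZIP25* overlap.

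bZIP67 is the group A factor that pairs with the L1L complex. Its mRNA stood at 0.823, 0.296 and 1.13 CPM in the libraries labelled *atwri1-1*, from 9, 6 and 10 reads, and at 83.4, 62.3 and 61.5 CPM in WT, from 1062, 704 and 713 reads. Every WT library exceeded every library with the mutant label by a wide margin. The mean was 0.749 ± 0.421 CPM labelled *atwri1-1* against 69.1 ± 12.4 CPM in WT (SD, n = 3 each). The log2 fold change was -6.68, with a 95% interval from -7.61 to -5.76 (standard error 0.394, adjusted p = 2.3e-04 by edgeR), or a fitted level 103-fold higher in WT. Within pairs of the same replicate number, the log2 ratio was -6.66, -7.72 and -5.77. By size of the log2 fold change it was the 18th lowest of 18241 genes. All the 31-base stretches of its transcript were unique among the counted transcripts (100%), and no annotated gene overlaps it. At the low level of the libraries labelled *atwri1-1*, 6 to 10 reads leave the size of the fold imprecise. The estimate ran from -7.07 to -6.15 over the 14 settings tried, with the call kept in each of them.

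*bZIP67* has 5 exons at chr3:16079432-16081906 in TAIR10.1. The 10 tested genes on either side of it had a median log2 fold change of -0.16, and 19 of these 20 were not called. The exception, singled out after its values were seen, was *NIT2*, a nitrilase gene at chr3:15983199-15985535. It stood at 0.274, 0.197 and 0.451 CPM in the libraries labelled *atwri1-1* and at 246, 430 and 487 CPM in WT. The *NIT2* log2 fold change was -10.39 (adjusted p = 7.7e-05 by edgeR), and 87.2% of its 31-base stretches were unique, as the gene has close copies. Its neighbours *NIT1* and *NIT3*, at 0.19 and 0.72 on the log2 scale, were not called.

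ABI5, the best known ABA factor of seeds, activates late embryogenesis genes and restrains germination. Its mRNA stood at 8.87, 13.9 and 15.2 CPM in the libraries labelled *atwri1-1* (97, 281 and 135 reads) and at 5.50, 6.46 and 6.56 CPM in WT (70, 73 and 76 reads). The groups did not overlap, with the lowest library labelled *atwri1-1* above the highest WT library. Mean levels were 12.6 ± 3.34 CPM labelled *atwri1-1* against 6.17 ± 0.584 CPM in WT (SD, n = 3 each), and the log2 fold change was 1.04 (standard error 0.247, adjusted p = 0.041 by edgeR). This call rests close to both thresholds. It was lost under limma-voom (1.01, adjusted p = 0.056) and when any 1 library other than replicate 1 labelled *atwri1-1* was left out, where the log2 fold change lay between 0.89 and 1.08. The direction was the same in all 14 settings, and the paired log2 ratios were 0.69, 1.102 and 1.22.

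EEL is a close relative of ABI5 that competes with it at promoters of late embryogenesis genes. With 136, 166 and 173 CPM in the libraries labelled *atwri1-1*, against 142, 149 and 150 CPM in WT, its groups overlapped. The log2 fold change of *EEL* was 0.11, with a 95% interval from -0.21 to 0.43 (adjusted p = 0.66 by edgeR). AREB3, a factor that binds ABA response elements, had 61.0, 73.4 and 65.7 CPM labelled *atwri1-1* against 70.9, 65.5 and 69.3 CPM in WT. The *AREB3* log2 fold change was -0.039 with a 95% interval from -0.33 to 0.25 (adjusted p = 0.88 by edgeR), and its sign turned with the scaling. Both intervals lie inside the range of 1 log2 unit either way. Of the 31-base stretches, 100% in *EEL* and 95.6% in *AREB3* were unique among the counted transcripts. Both genes overlap other annotated genes, and strand was not used. Reads from those genes that match only the *EEL* or *AREB3* transcript cannot be told apart from theirs.

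The group C factors bZIP10 and bZIP25 bind storage protein promoters with ABI3. *bZIP10* had 68.7, 46.0 and 51.5 CPM in the libraries labelled *atwri1-1*, against 77.0, 75.7 and 76.0 CPM in WT. Its 3 WT libraries lay within a narrow band above all 3 of the others. The log2 fold change of *bZIP10* was -0.46 (standard error 0.168, 95% interval from -0.86 to -0.068), which did not pass the test across all genes (adjusted p = 0.14 by edgeR). For *bZIP25* the levels were 30.5, 27.0 and 30.0 CPM labelled *atwri1-1* against 36.0, 27.2 and 32.3 CPM in WT, and the groups overlapped. Its log2 fold change was -0.13 (95% interval from -0.48 to 0.22, adjusted p = 0.64 by edgeR), positive under scaling by library size alone.

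**Figure D2:**
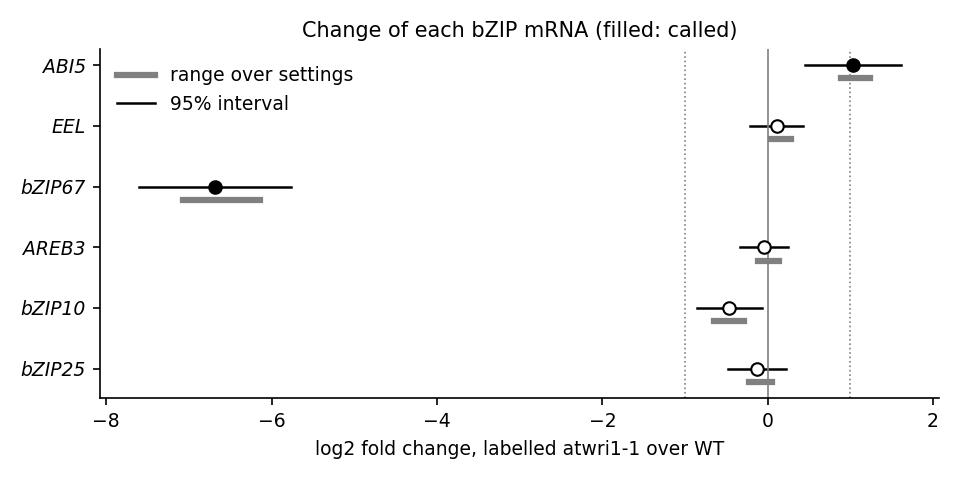
The x axis is the log2 fold change of the libraries labelled *atwri1-1* over WT, with 1 row per gene. Circles are the estimates (filled where called), thin lines 95% intervals, grey bars the range over 14 settings, and dotted lines mark 1 and -1. *bZIP67* stands alone at -6.68, and the grey bar of *ABI5* spans the upper dotted line.

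Levels of different members were compared per kb of transcript, with lengths from TAIR10.1, a later annotation than the TAIR10 transcripts that were counted. In the libraries labelled *atwri1-1*, *EEL* led with 125 ± 15.8 CPM per kb, followed by *bZIP10* at 34.6 ± 7.39 and *AREB3* at 34.5 ± 3.24, which overlapped each other (SD, n = 3 each). Below them came *bZIP25* at 18.7 ± 1.22, *ABI5* at 6.73 ± 1.78 and, last, *bZIP67* at 0.422 ± 0.237 CPM per kb. In WT, *EEL* also led, with 116 ± 3.09 CPM per kb, ahead of *bZIP10* at 47.6 ± 0.413, *bZIP67* at 38.9 ± 7.002 and *AREB3* at 35.5 ± 1.43 CPM per kb. There *bZIP67* overlapped *AREB3*, while *bZIP25* (20.5 ± 2.82 CPM per kb) and *ABI5* (3.28 ± 0.311 CPM per kb) were the lowest. *bZIP67* thus took 0.225%, 0.0749% and 0.275% of the summed level of the 6 members per kb in the libraries labelled *atwri1-1*, against 17.4%, 13.8% and 13.3% in WT. *EEL* made up 51.9%, 58.9% and 59.2% of it labelled *atwri1-1*, against 41.6%, 46.1% and 45.3% in WT.

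The summed CPM of the 6 members was 305, 327 and 337 in the libraries labelled *atwri1-1*, against 415, 386 and 395 in WT. Without *bZIP67*, the sums were 305, 326 and 336 CPM labelled *atwri1-1* against 332, 324 and 334 CPM in WT, and the groups overlapped.

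**Figure D3:**
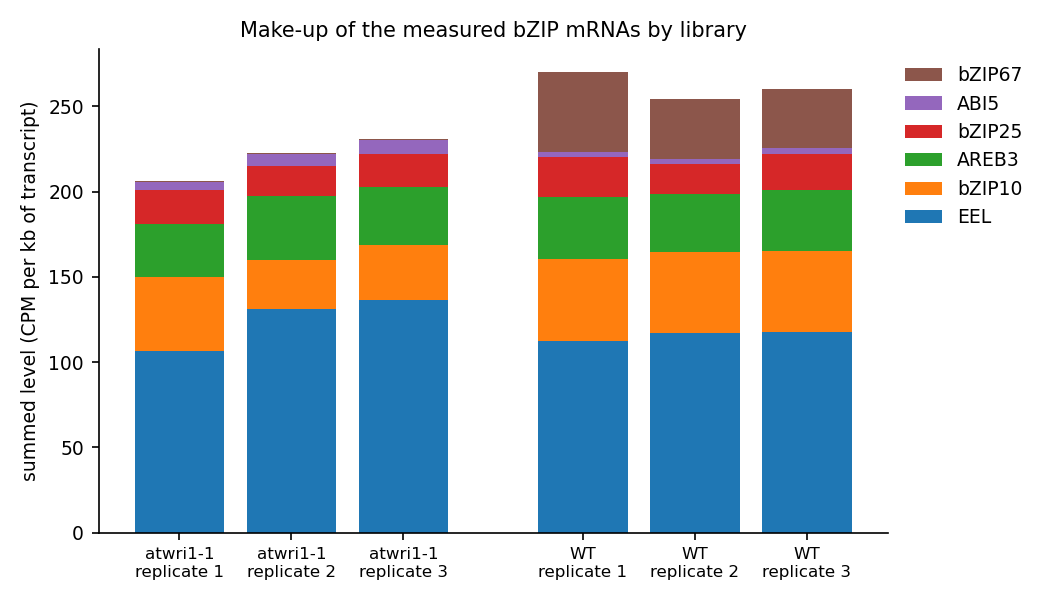
Bars are libraries, those labelled *atwri1-1* on the left and WT on the right, and the y axis is the summed level of the 6 measured bZIP mRNAs in CPM per kb of transcript. Segments are genes. The *bZIP67* segment at the top of each WT bar, 34.6 to 47.0 CPM per kb, is too thin to see in the libraries labelled *atwri1-1*, where it is at most 0.635 CPM per kb.

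A list of 15 relatives of groups A, C and S1 gave 10 tested genes, all of groups A and C, of which 1 was called lower and 9 were not called, with a median log2 fold change of -0.25. The 4 listed group S1 relatives were not analysed here. Beside this count and those of the lists below stand the shares over all genes, 5.31% called lower and 1.08% higher. The called gene was *bZIP63*, a group C factor that responds to low energy and dimerises with group S1. It had 6.59, 6.76 and 5.64 CPM in the libraries labelled *atwri1-1*, against 29.5, 37.3 and 34.9 CPM in WT, without overlap. Its log2 fold change was -2.42 (standard error 0.166, adjusted p = 3.3e-04 by edgeR), and the call held in all 14 settings. *bZIP13*, a group A gene, had 14.9, 16.1 and 18.3 CPM labelled *atwri1-1* against 50.6, 25.6 and 23.3 CPM in WT (-1.02, adjusted p = 0.085 by edgeR). The ABA response factors *ABF1* and *ABF2*, which act mainly in vegetative tissues, had log2 fold changes of -0.083 and 0.39 with overlapping groups.

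Among 11 genes for proteins that interact with the members or act beside them, all tested, 1 fell and 2 rose (median log2 fold change 0.49). *L1L*, the NF-YB partner of bZIP67, fell. It had 23.2, 14.9 and 30.4 CPM in the libraries labelled *atwri1-1*, against 436, 242 and 254 CPM in WT. The groups were far apart, and the log2 fold change was -3.77 (standard error 0.355, adjusted p = 0.0013 by edgeR). Of the *L1L* stretches 83.0% were unique, and 2 annotated genes overlap it. The paralog *LEC1*, master regulator of the maturation programme, did not pass, with 84.3, 76.9 and 57.2 CPM labelled *atwri1-1* against 59.2, 35.1 and 31.1 CPM in WT (0.80, adjusted p = 0.12 by edgeR), but was called without WT replicate 1 (1.14, adjusted p = 0.0034). *NF-YC2*, the other subunit of the complex, had a log2 fold change of 0.35 with overlapping groups, and 3.05% of its stretches were unique, so its level is uncertain.

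The B3 factor *LEC2*, which acts upstream of *WRI1*, rose. Its levels were 24.6, 22.7 and 19.7 CPM in the libraries labelled *atwri1-1* against 8.95, 12.03 and 11.8 CPM in WT (log2 fold change 1.03, adjusted p = 0.013 by edgeR). The call was lost without replicate 1 or 2 labelled *atwri1-1* (0.96 and 1.02) or without WT replicate 1 (0.90). *ABI3*, partner of ABI5 and of the group C factors, had 598, 558 and 618 CPM labelled *atwri1-1* against 440, 483 and 503 CPM in WT. Although its groups did not overlap, the log2 fold change of 0.31 did not pass (adjusted p = 0.18 by edgeR). *FUS3*, the B3 factor of embryo identity, had a log2 fold change of 0.18 with overlapping groups.

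The ABI5 binding proteins AFP1 to AFP4 bind ABI5, AFP1 is known to promote its breakdown, and ABA induces the *AFP* genes. *AFP4* rose, with 42.8, 49.4 and 45.7 CPM in the libraries labelled *atwri1-1* against 10.2, 22.3 and 21.7 CPM in WT (log2 fold change 1.35, adjusted p = 0.028 by edgeR). The *AFP4* call was lost without any 1 library labelled *atwri1-1* (1.29 to 1.40) and without WT replicate 3 (1.50). *AFP1* stood at 1.61 (adjusted p = 0.057 by edgeR) and was called with replicate numbers as a block (1.59, adjusted p = 0.011), by DESeq2 (1.62), under library size scaling (1.77) and without replicate 1 of either genotype (1.91 labelled *atwri1-1*, 1.33 WT). *AFP2* stood at 0.49 (0.068) and *AFP3* at 0.80, the last with an adjusted p of 0.038 by edgeR but under the fold minimum. The groups of all 4 genes were without overlap, as were those of 35% of all genes tested. The summed *AFP* level was 183, 223 and 231 CPM labelled *atwri1-1* against 98.4, 132 and 131 CPM in WT. *KEG*, the E3 ligase that also targets ABI5, had a log2 fold change of 0.33 and was not called (adjusted p = 0.36 by edgeR).

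ABA reaches these factors through receptors of the PYR/PYL family, PP2C phosphatases and SnRK2 kinases. Of 26 such genes 19 were tested, and 3 fell while 16 were not called (median log2 fold change -0.39). The receptors *PYR1* and *PYL5* had log2 fold changes of -1.39 and -1.68 (adjusted p = 0.018 and 0.037 by edgeR). Levels of *PYR1* were 7.41, 8.04 and 8.57 CPM labelled *atwri1-1* against 29.5, 17.6 and 15.8 CPM in WT. *PYL5* was low throughout, with 1.28 to 1.87 CPM labelled *atwri1-1* against 3.46 to 7.61 CPM in WT. Leaving out any 1 library labelled *atwri1-1* ended both calls, with log2 fold changes of -1.44 to -1.34 for *PYR1* and -1.84 to -1.55 for *PYL5*. The *PYL5* call was also lost without WT replicate 2 (-1.29) or 3 (-1.79), under library size scaling (-1.52) and under limma-voom (-1.55). With replicate numbers as a block, the receptor gene *PYL4*, singled out for this, was also called (-1.02, adjusted p = 0.024 by edgeR, against -1.07 and 0.088 without the block). *ABI1*, a phosphatase that holds the kinases inactive, had 10.5, 13.1 and 9.70 CPM labelled *atwri1-1* against 27.2, 26.3 and 24.0 CPM in WT (log2 fold change -1.21, adjusted p = 0.0054 by edgeR, called in all 14 settings). The phosphatases *AHG3* and *HAI1* (-0.0060 and 0.61) and the kinase *SnRK2.3* (-0.39) were the most abundant of those not called.

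Genes known to be bound or activated by these bZIP factors formed a list of 22, of which 18 were tested. In it 2 genes fell, 1 rose and 15 were not called, and the median log2 fold change was -0.50. Of the 4 late embryogenesis genes in the list, 2 were tested and neither was called. Their sums were low, at 2.37 to 4.17 CPM labelled *atwri1-1* and 1.73 to 2.21 CPM in WT. The 2 genes went opposite ways, with log2 fold changes of -0.67 and 1.31. *SUS2*, a sucrose synthase of maturing seeds and a target of the bZIP67 complex, fell to 4.76, 5.33 and 6.65 CPM in the libraries labelled *atwri1-1*, against 149, 125 and 216 CPM in WT. The fitted level was 29.4-fold higher in WT (log2 fold change -4.88, standard error 0.269, adjusted p = 1.9e-04 by edgeR), called in all 14 settings. The *SUS2* window ahead of its gene start held neither an ACGT core nor an RY element. Of all such windows, 44.1% held an ACGT core and 8.43% an RY element. In the 500 bases after the gene start, *SUS2* had 2 ACGT cores and 2 AW Boxes, motifs found there in 60.6% and 39.8% of all genes. These matches, or the lack of them, do not describe binding, and the cause of the fall was not tested.

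*ASN1*, an asparagine synthetase gene activated by group C and S1 heterodimers, had 0 reads in all 3 libraries labelled *atwri1-1*, against 43, 1155 and 403 reads in WT. With 3 reads per library as the limit that a count of 0 allows, its mean was at least 184-fold lower (adjusted p = 0.041 by edgeR). WT libraries alone spanned 3.38, 102 and 34.8 CPM, and the call was lost under limma-voom, without any 1 library labelled *atwri1-1*, and without WT replicate 3, with adjusted p between 0.080 and 0.18. *PER1*, a peroxiredoxin gene of the embryo and aleurone, rose, with 121, 131 and 267 CPM labelled *atwri1-1* against 27.5, 10.8 and 29.3 CPM in WT. The *PER1* log2 fold change was 2.94 (standard error 0.464, adjusted p = 0.0090 by edgeR), called in all 14 settings.

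Levels of the storage protein genes spread widely among libraries of the same genotype. *CRC*, whose window is shown above, had 0.823, 11.9 and 135 CPM in the libraries labelled *atwri1-1*, against 115, 120 and 299 CPM in WT. All 3 pairs of the same number were lower labelled *atwri1-1*, but the groups overlapped and the log2 fold change of -1.87 had a standard error of 1.30 (adjusted p = 0.42 by edgeR). *CRA1*, another globulin gene, had 249, 556 and 2270 CPM labelled *atwri1-1* against 1068, 1409 and 2114 CPM in WT (-0.58, adjusted p = 0.66 by edgeR). The albumin gene *At2S2* had 526, 711 and 1733 CPM labelled *atwri1-1* against 525, 629 and 1726 CPM in WT, a log2 fold change of 0.044. For *CRC*, *CRA1* and *At2S2*, replicate 3 was the highest in both genotypes, though not for every storage protein gene in the list. The standard errors and p-values given here come from the fit without a replicate block. The oleosin gene *OLE1*, for the coat protein of oil bodies, stood at 0.70 with groups that did not overlap (adjusted p = 0.094 by edgeR). *FAD3*, the desaturase gene bound by bZIP67, had 248, 255 and 330 CPM labelled *atwri1-1* against 342, 400 and 434 CPM in WT (-0.50, adjusted p = 0.12 by edgeR).

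**Figure D4:**
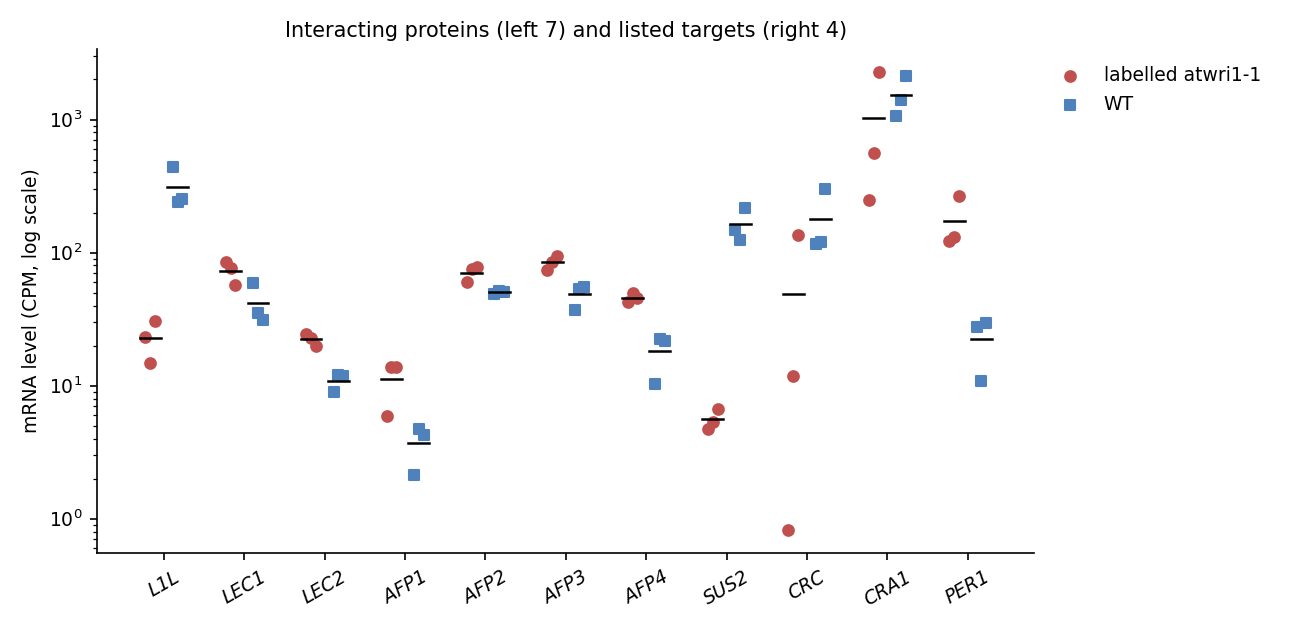
The y axis is the mRNA level in CPM on a log scale, with a point for each library (circles labelled *atwri1-1*, squares WT) and black bars for means of 3. The 7 genes on the left encode interacting proteins and the 4 on the right are known targets. *L1L* and *SUS2* are low in the circles (14.9 to 30.4 and 4.76 to 6.65 CPM), *PER1* is high in them (121 to 267 CPM), and the *CRC* circles run from 0.823 to 135 CPM.

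For the called members, the genes with the most similar pattern of log2 CPM over the 6 libraries were sought among those with a mean of at least 10 CPM. Such correlations follow the split between genotypes and share library depth, so they are given as descriptions. *bZIP67* was most like *HSD6* (r = 0.999 over 6 libraries, of 12286 genes compared), a steroleosin family gene. *HSD6* had 0.915, 0.493 and 1.24 CPM in the libraries labelled *atwri1-1*, against 124, 93.4 and 104 CPM in WT, a log2 fold change of -7.03. The second was AT3G59940 (r = 0.999), at 9.15, 7.89 and 9.70 CPM labelled *atwri1-1* against 31.1, 30.3 and 27.3 CPM in WT. *ABI5* was most like *TSBtype2* (r = 0.996 over 6 libraries, of 12287 genes), for a tryptophan synthase subunit, and *AFP2* (r = 0.995). Both differed less than *ABI5* itself, with log2 fold changes of 0.49 each, and were not called.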

How the data were processed

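After taking out rRNA reads, the authors aligned the remainder to TAIR10 transcripts with bowtie 0.12.7, kept reads with 1 best place, and deposited raw counts per transcript for 3 biological replicates of each genotype. Reads came from amplified cDNA and were counted without regard to strand. Library totals exclude the row that names no transcript, 39.6% to 86.6% of each total, and a count of 3 was 0.148 to 0.338 CPM, which covers counting error only. The deposited table of normalized values was not used.

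Counts were fitted in R 4.3.3 with edgeR 4.0.16 (filterByExpr, TMM, glmQLFit and glmQLFTest, no block, all 6 libraries), and p-values were adjusted over all 18241 genes. Intervals (95%) use the t distribution of that test. Standard errors are the absolute log2 fold change over the square root of F. The scripts were tested on simulated data. Alternatives were RLE and library size scaling, no filter, a filter of 10 reads, DESeq2 1.42.0, limma-voom (limma 3.58.1), the replicate block, other thresholds and each library left out. The 14 settings of the text leave out the changed thresholds.

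Deviations from the group means correlated between genotypes at 0.246, 0.286 and 0.214 for replicates 1, 2 and 3. Libraries of unlike number gave -0.254 to 0.0359, so those of the same number were the most alike on these values. What libraries of the same number share was not tested. The main fit has no block, and the fit with a block is among the alternatives. For WT replicate 3 the title and description give different numbers, and the title was used. No replicates within a genotype were duplicates (chi-square per degree of freedom 6.95 to 88.7, highest for the pairs with WT replicate 1).

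The members and gene lists were chosen with earlier results of these data known. Named genes were the members, *WRI1*, in each list of relatives, partners, ABA genes and targets up to 6 called genes with the largest change and the 3 most abundant others, and the 2 genes most like each called member. *LEC1*, *AFP1*, *AFP3*, *KEG*, *PYL4*, *PYL7*, *ProDH1*, *AGL62*, *FWA*, *EPR1*, *CRC*, *FAD3*, *NIT2*, *NIT1* and *NIT3* were named after their values were seen. Transcripts were matched to TAIR10.1 by number (24169 of 24509). Of the named genes beyond the members, *L1L*, *NF-YC2*, *AFP1*, *AFP2*, *ABF1*, *ABI1*, *ASN1*, *OLE1*, *OLE2* and *FWA* overlap another annotated gene. So do *SnRK2.3*, *IKU2* and *PYL7*. Of the 31-base stretches of *PYL7*, 55.0% were unique, so its level is uncertain. Motifs were searched in Python 3.11.15.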

Additional observations from a re-analysis of the deposited data

How the results depend on the processing

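The *bZIP67* call held under every alternative run, as did those of *bZIP63*, *L1L*, *ABI1*, *SUS2* and *PER1*. The log2 fold change of *ABI5* was 1.01 under limma-voom, where its call was lost, and 0.89 to 1.23 with 1 library left out. Members called higher numbered 0 under limma-voom and at an adjusted p of 0.01, and 0 to 1 with a library left out. *AREB3* turned to 0.14 and *bZIP25* to 0.052 under library size scaling, which moved the median of all genes to 0.17, and *AREB3* ranged from -0.11 to 0.020 with a library left out. With replicate numbers as a block, the log2 fold change was 1.01 for *ABI5* (adjusted p = 0.043 by edgeR) and -6.68 for *bZIP67*, and no call of a member changed. In the other lists the block added *AFP1* (1.59) and *PYL4* (-1.02) to the calls. Over all genes, 544 were called lower at 0.01 and 545 to 1087 with a library left out. Genes called higher numbered 344 by library size, 317 by DESeq2, 485 without a fold minimum, 72 at 0.01 and 74 to 364 with a library left out. Relatives called lower were 2 by DESeq2. Partners called higher were 0 at 0.01 and 0 to 3 with a library left out. ABA genes called lower were 5 by DESeq2, 1 at 0.01 and 1 to 4 with a library left out. Targets called lower were 1 by limma-voom, 1 at 0.01 and 1 to 3 with a library left out. The causes were not tested. Reads limit *bZIP67* in the libraries labelled *atwri1-1* (6 to 10 reads) and *PYL5*.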
